A study of Mus musculus with 8 samples.

Results

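The nuclear genes for the mitochondrial respiratory chain and the ATP synthase were followed across 4 groups of pre-iPSCs, which are cells stalled partway through reprogramming. They were taken by gene symbol from the array annotation: every symbol starting with Nduf, Uqcr or Atp5, or with Cox and a digit from 4 to 8, and Sdha, Sdhb, Sdhc, Sdhd, Cyc1, Slc25a4 and Slc25a5. This gave 90 of 19057 symbols. There were 36 members of complex I (with Ndufs5-ps, which is annotated as a pseudogene), 8 complex I assembly factors, 4 members of complex II, 8 of complex III, 16 of complex IV, 16 of the ATP synthase and 2 carriers. The members had 138 probes, and each was read from its probe of highest mean intensity over the 8 arrays. Another probe existed for 35 of them and served as a check.

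In the respiratory chain, complexes I and II take electrons from NADH and succinate, ubiquinone and cytochrome c carry them to complexes III and IV, and complexes I, III and IV pump protons across the inner mitochondrial membrane. The ATP synthase lets the protons flow back and makes ATP, which the ADP/ATP carriers Slc25a4 and Slc25a5 exchange for cytosolic ADP. A shift in the balance of glycolysis and oxidative phosphorylation is a known part of somatic cell reprogramming, and naive and primed pluripotent cells differ in it.

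The cells were female, of a 129/MF1 background, derived from neural stem cells, and carried an Oct4-GFP-IRES-puro reporter. They grew in serum with LIF and were taken at day 0, before any change to 2i + LIF medium. All groups had been stably transfected with PiggyBac vectors with a CAG promoter and drug-selected. They received Nanog and Sin3a (Nanog+Sin3a), Nanog and an empty vector (Nanog), Sin3a and an empty vector (Sin3a), or empty vectors only (EV), with 2 arrays per group. Nanog is a homeodomain factor of the pluripotency network and Sin3a the scaffold of a histone deacetylase co-repressor complex, and the series asks whether they cooperate. The labels do not say whether the arrays of a group came from separate cultures or clones, so p-values measure only the spread between these arrays.

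The transgenes followed the labels. The brighter Nanog probe averaged 287 ± 3.0 in Nanog+Sin3a, 425 ± 86 in Nanog, -9.75 ± 3.5 in Sin3a and -4.5 ± 1.3 in EV arrays, and the other stayed near the background on all arrays. The Sin3a probe averaged 1484 ± 0.99 in Nanog+Sin3a, 408 ± 91 in Nanog, 1162 ± 29 in Sin3a and 296 ± 48 in EV arrays (SD, n = 2 each). Values are intensities in arbitrary units, with the background subtracted, and those under 16 were set to this floor before log2. Of 13 pluripotency markers, 5 were above the floor on all 7 arrays other than the second Sin3a array, Pou5f1 (Oct4) among them, and Esrrb, Dppa3, Utf1 and Lin28a were at the floor. Of the 8 neural stem cell markers measured, 7 were at the floor on those arrays, Nes being the exception.

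The second Sin3a array stood apart at low and middle intensities. Among the 22 tested members with a mean log2 intensity up to 9, 14 differed by over 1 (log2) between the Sin3a arrays, against 1 between the Nanog+Sin3a arrays, 1 between the Nanog arrays and 0 between the EV arrays. Among the 58 brighter members the number was 0 in every group. Comparisons that do not use Sin3a cells were therefore tested on the other 7 arrays, where 80 members passed the filter of being above the floor on at least 2 arrays. Comparisons with Sin3a cells were tested on all 8 arrays over features with a mean above 9, called bright, which held 58 members.

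**Figure D1:**
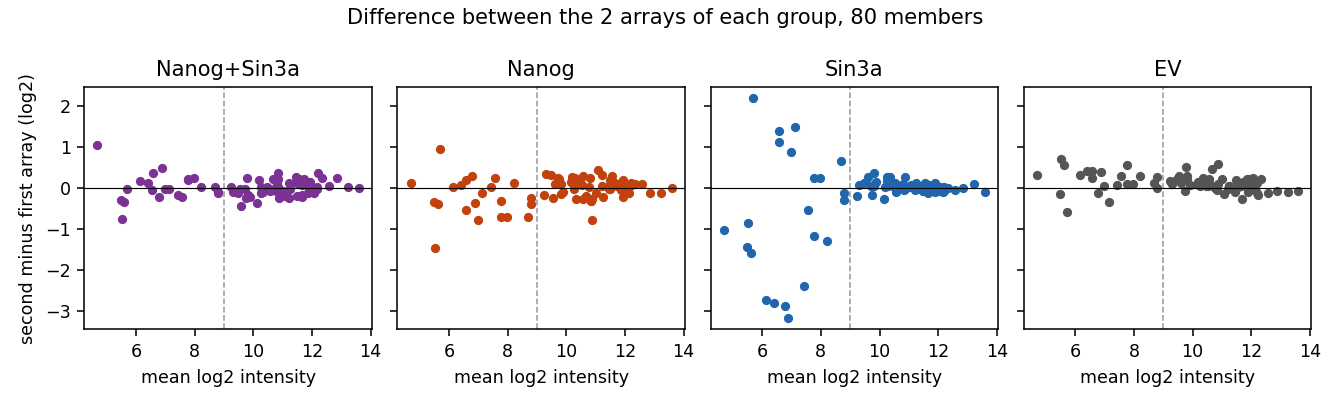
Difference between the second and first array of each group (log2, vertical axis) against mean log2 intensity (horizontal axis) for the 80 members tested, 1 panel per group. The dashed line marks a mean of 9; left of it the Sin3a arrays differ by up to 3.18, and right of it no group's arrays differ by more than 0.78.

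The promoters of 6 members described below are shown. Ndufa9 and Ndufa8 were higher with Nanog. Slc25a4, Atp5md, Cox7b and Ndufb4 had the largest falls that passed the test in Nanog+Sin3a cells. Other members that passed, such as Atp5a1, Ndufaf2 and Atp5pb, are not shown. Each sequence holds the 250 bases before the annotated start of the gene, 5′ to 3′ on the gene's own strand, from RefSeq on build GRCm38.p6. Capitals mark the motifs searched on both strands, which were GCGCANGCG, the motif of NRF1, and CCGGAAG, a core motif of ETS factors such as GABP. NRF1 and GABP are textbook regulators of respiratory chain genes.
Ndufa9, chr6:126849145-126849394, minus strand: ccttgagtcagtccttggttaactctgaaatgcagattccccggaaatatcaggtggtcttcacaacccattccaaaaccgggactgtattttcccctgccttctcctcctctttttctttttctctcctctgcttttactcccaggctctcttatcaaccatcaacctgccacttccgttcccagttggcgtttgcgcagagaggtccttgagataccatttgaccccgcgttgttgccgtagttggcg
Ndufa8, chr2:36049339-36049588, minus strand: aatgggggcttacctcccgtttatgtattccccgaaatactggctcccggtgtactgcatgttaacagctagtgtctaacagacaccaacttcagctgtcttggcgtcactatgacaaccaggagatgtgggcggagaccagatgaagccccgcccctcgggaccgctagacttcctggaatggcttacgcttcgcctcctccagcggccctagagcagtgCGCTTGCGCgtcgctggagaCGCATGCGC
Slc25a4, chr8:46211063-46211312, minus strand: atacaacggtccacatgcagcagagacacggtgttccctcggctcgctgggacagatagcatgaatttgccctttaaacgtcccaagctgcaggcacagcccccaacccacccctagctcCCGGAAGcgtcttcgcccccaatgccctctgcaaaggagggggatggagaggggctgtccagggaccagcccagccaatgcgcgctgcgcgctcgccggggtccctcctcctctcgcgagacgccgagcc
Atp5md, chr19:47090648-47090897, minus strand: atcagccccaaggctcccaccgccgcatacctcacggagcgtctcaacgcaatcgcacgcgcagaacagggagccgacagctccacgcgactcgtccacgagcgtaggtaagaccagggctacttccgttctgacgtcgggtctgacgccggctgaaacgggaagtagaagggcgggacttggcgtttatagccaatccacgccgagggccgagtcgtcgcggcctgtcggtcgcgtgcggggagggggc
Cox7b, chrX:106015450-106015699, plus strand: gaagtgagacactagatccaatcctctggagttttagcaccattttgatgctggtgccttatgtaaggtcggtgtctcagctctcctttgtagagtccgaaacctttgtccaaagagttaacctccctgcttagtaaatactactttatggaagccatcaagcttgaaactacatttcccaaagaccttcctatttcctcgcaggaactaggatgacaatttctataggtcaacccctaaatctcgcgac
Ndufb4, chr16:37654369-37654618, minus strand: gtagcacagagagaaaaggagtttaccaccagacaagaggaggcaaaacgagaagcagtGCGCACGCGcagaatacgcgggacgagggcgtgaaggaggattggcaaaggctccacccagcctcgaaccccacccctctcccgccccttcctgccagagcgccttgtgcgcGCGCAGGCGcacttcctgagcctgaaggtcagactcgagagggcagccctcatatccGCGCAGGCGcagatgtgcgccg

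Ndufb4 held the NRF1 motif at 3 places and Ndufa8 at 2, Slc25a4 held the ETS motif once, and Ndufa9, Atp5md and Cox7b held neither. Of 74 members with a promoter in the table, 14 (18.9%) held the NRF1 motif, against 12.8% of 8078 other genes tested on the arrays and 5.86% of all 27025 genes in the table. The ETS motif was in 15 of 74 members (20.3%), against 15.9% of the other tested genes and 7.83% of all genes. A match is a description of these letters, and binding was not measured here.

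Nanog+Sin3a cells differed from EV cells in a small number of members. By limma with Benjamini-Hochberg adjustment over 12886 features, 8 of 80 members passed at 0.05, against 7.45% of all features tested. Ndufa9 rose, and Slc25a4, Atp5md, Cox7b, Ndufb4, Atp5a1, Ndufaf2 and Atp5pb fell. By direction, 1 of 80 rose (3.78% of all features) and 7 fell (3.67% of all features). Counting every tested member, 33 were higher and 47 lower, with a median log2 difference of -0.054, against 0.0076 for all features. The median size of the difference was 0.13 for the members and 0.24 for all features, and 12.5% of members against 20.5% of all features differed by over 0.5. In RNA from whole cultures, fewer cells of a type and less RNA per cell cannot be told apart.

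**Figure D2:**
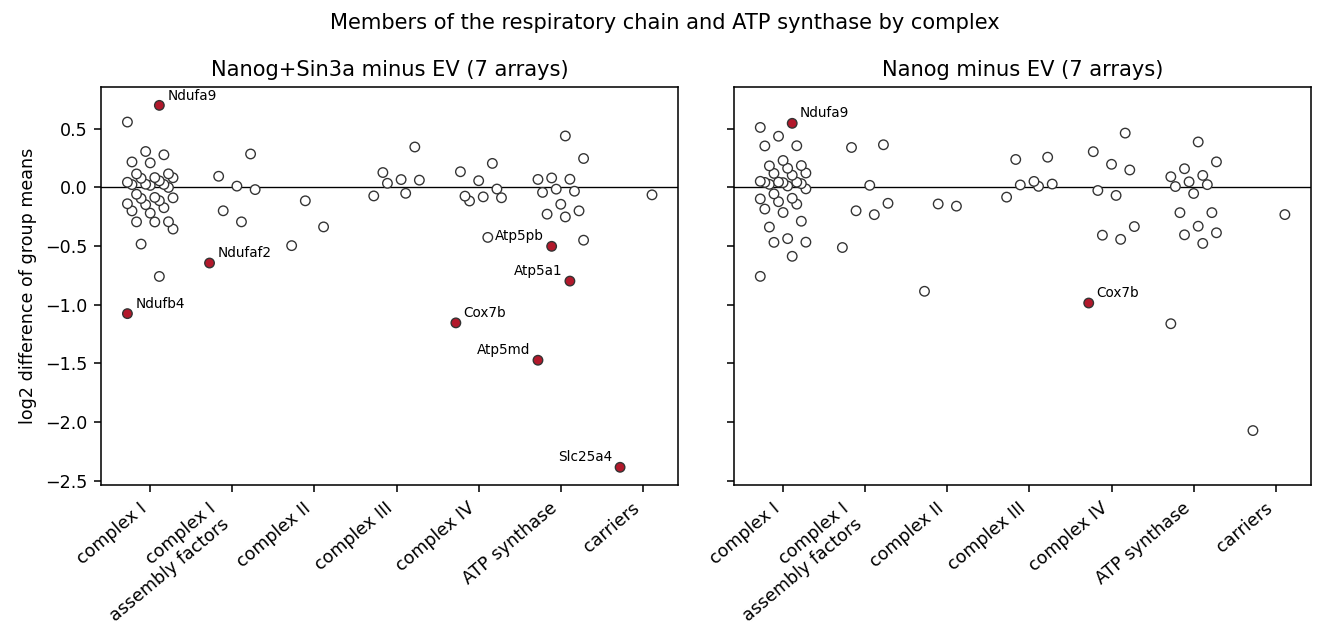
Log2 difference of group means (vertical axis) for each tested member, grouped by complex (horizontal axis), for Nanog+Sin3a minus EV on the left and Nanog minus EV on the right, both on 7 arrays. Filled points passed the test at an adjusted p of 0.05 and are named; in Nanog+Sin3a minus EV 54 of 80 members lie within 0.25 of 0, and in Nanog minus EV 50 of 80.

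The largest fall was that of Slc25a4, the ADP/ATP carrier known best from heart and muscle. Its intensities were 28.0 and 16.4 in Nanog+Sin3a, 44.3 and 12.9 in Nanog, 92.7 and 51.5 in Sin3a, and 87.7 and 143 in EV arrays. All 4 arrays with the Nanog transgene lay below all 4 without it, and 1 Nanog array was under the floor. The log2 difference between Nanog+Sin3a and EV was -2.39 (SE 0.53, limma adjusted p = 0.0478), a level that fell by 80.9%. This call was lost in 6 of 10 alternatives, a floor of 8 and the replicate block among them (adjusted p 0.00445 to 0.36 over the alternatives). Slc25a5, the carrier of proliferating cells, had 6995 and 8283 in Nanog+Sin3a, against 8194 and 7718 in EV arrays, groups that overlap. Its difference was -0.063 (SE 0.11, adjusted p = 0.754).

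In the ATP synthase, 3 of 16 tested members fell and 0 rose, where 3.67% of all features fell and 3.78% rose. Atp5md, a small membrane subunit tied to the pairing of ATP synthases, had 51.4 and 49.9 in Nanog+Sin3a, 75.5 and 52.3 in Nanog, 121 and 261 in Sin3a, and 122 and 162 in EV arrays. The arrays with Nanog were again all below those without. The difference between Nanog+Sin3a and EV was -1.47 (SE 0.23, adjusted p = 0.0206), so the level fell by 64.0%.

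Atp5a1, the alpha subunit of the catalytic head, had 568 and 552 in Nanog+Sin3a, 766 and 639 in Nanog, 747 and 826 in Sin3a, and 881 and 1076 in EV arrays. The Nanog+Sin3a arrays were the lowest, the EV arrays the highest, and the single-transgene groups lay between and overlapped each other. Its difference between Nanog+Sin3a and EV was -0.80 (SE 0.13, adjusted p = 0.023). A second probe of Atp5a1, dim at 36.6 and 43.2 in Nanog+Sin3a against 30.9 and 38.6 in EV arrays, showed 0.20 (adjusted p = 0.671).

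Atp5pb, the b subunit of the peripheral stalk that holds the head in place, had 1078 and 989 in Nanog+Sin3a, 1101 and 1137 in Nanog, 1197 and 1437 in Sin3a, and 1426 and 1500.1 in EV arrays. The difference between Nanog+Sin3a and EV was -0.50 (SE 0.084, adjusted p = 0.0237). Its probes disagreed. Another probe of like brightness read 1129.9 and 1207 in Nanog+Sin3a against 1153 and 1150.0 in EV arrays (0.021, adjusted p = 0.956), and the 2 dim probes showed -0.60 and -0.93 (adjusted p = 0.27 and 0.153). The fall of Atp5pb therefore rests on the brightest of its 4 probes.

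The catalytic beta subunit Atp5b read 12641 and 12576 in Nanog+Sin3a, against 12328 and 11706 in EV arrays (0.070, SE 0.083, adjusted p = 0.634). The other 12 ATP synthase members did not pass the test either, and 10 of 16 were within 0.25 of EV. Atp5g2, which codes for the c subunit of the membrane ring, had 869 and 794 in Nanog+Sin3a against 571 and 658 in EV arrays (0.44, adjusted p = 0.0992). Atp5g3, a further gene for the same subunit, read 9917 and 10043 in Nanog+Sin3a against 9805 and 9078 in EV arrays (0.081, adjusted p = 0.613). Atp5g1 was not analysed here.

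In complex IV, cytochrome c oxidase, 1 of 10 tested members fell, where 3.67% of all features did. Cox7b, a small nuclear-coded subunit, had 58.9 and 65.7 in Nanog+Sin3a, 69.7 and 70.2 in Nanog, 107 and 9.5 in Sin3a, and 124 and 155 in EV arrays. The arrays with Nanog were below the first Sin3a array and both EV arrays, while the second Sin3a array was under the floor. The difference between Nanog+Sin3a and EV was -1.15 (SE 0.17, adjusted p = 0.017), and the level fell by 55.1%. Cox6c, another small subunit, came next with 1784 and 1504 in Nanog+Sin3a against 1805 and 2681 in EV arrays (-0.43, SE 0.29, adjusted p = 0.406). The arrays of a group differed widely for Cox6c, and it did not pass.

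**Figure D3:**
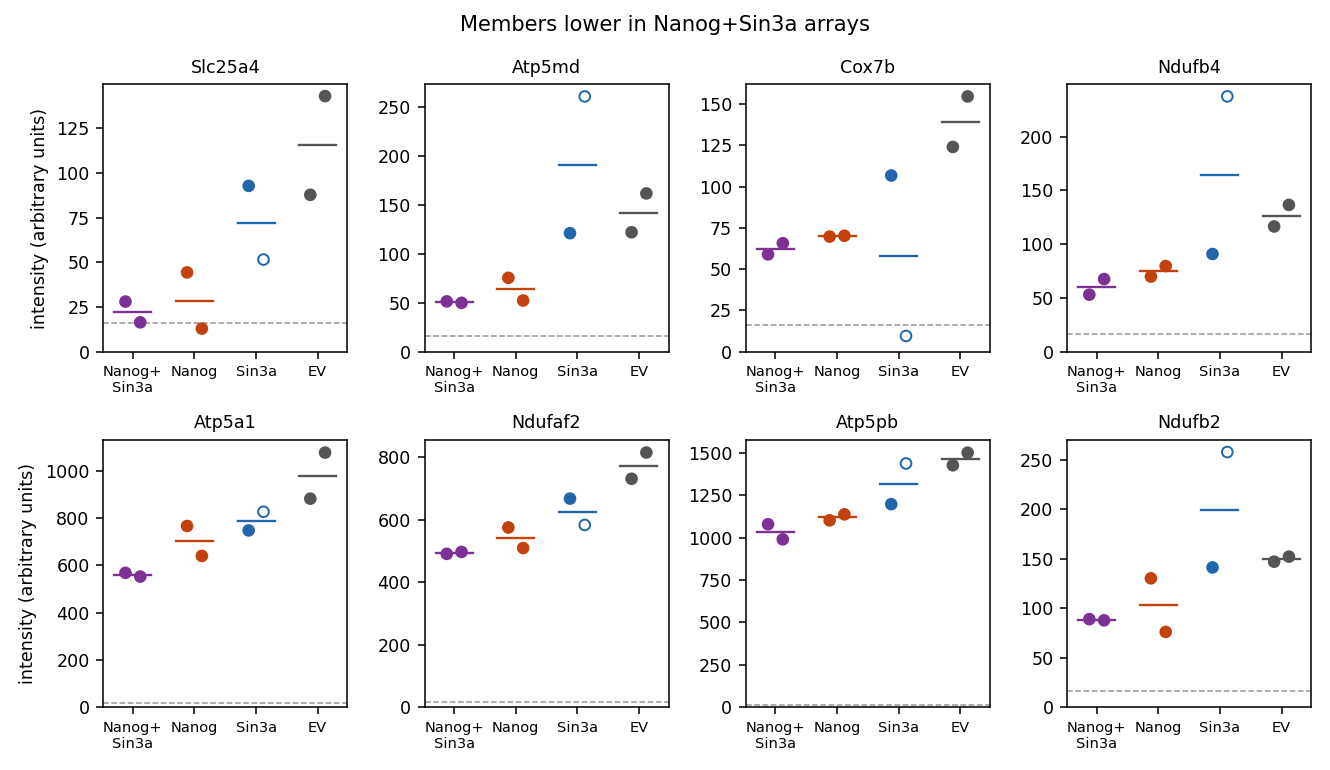
Intensity in arbitrary units (vertical axis, from 0) on each array for 8 members, by group, with points for arrays and bars for group means; the open point is the second Sin3a array and the dashed line the floor of 16. The Nanog+Sin3a arrays lie below both EV arrays in all 8 panels, and Ndufb2 is shown although it did not pass the test (-0.76, adjusted p = 0.12).

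Complex I had 1 rise and 1 fall among 35 tested members, where 3.78% of all features rose and 3.67% fell. Ndufa9, an accessory subunit where the matrix arm meets the membrane arm, had 3421 and 3749 in Nanog+Sin3a, 3251 and 3190.0 in Nanog, 2318 and 2370.3 in Sin3a, and 2282 and 2130.3 in EV arrays. All 4 arrays with Nanog were above all 4 without. The difference between Nanog+Sin3a and EV was 0.70 (SE 0.086, adjusted p = 0.0102), a level 62.4% higher. Ndufb4, an accessory subunit of the far membrane arm, had 53.0 and 67.5 in Nanog+Sin3a, 69.8 and 79.6 in Nanog, 90.8 and 237 in Sin3a, and 116 and 137 in EV arrays. Its difference was -1.08 (SE 0.19, adjusted p = 0.0272), and the level fell by 52.6%. Ndufb2, of the same part of the complex, had 89.1 and 87.9 in Nanog+Sin3a against 147 and 152 in EV arrays and did not pass (-0.76, SE 0.25, adjusted p = 0.12). Among the 35 members, 24 were within 0.25 of EV, and the median difference was -0.0001.

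Among the assembly factors of complex I, 1 of 7 tested fell, where 3.67% of all features did. Ndufaf2, which acts late in assembly, had 491 and 497 in Nanog+Sin3a, 575 and 509 in Nanog, 668 and 583 in Sin3a, and 731 and 815 in EV arrays. The groups did not overlap between arrays with and without Nanog, and the Sin3a arrays lay between the Nanog and EV arrays. Its difference between Nanog+Sin3a and EV was -0.64 (SE 0.10, adjusted p = 0.0205). Ndufaf4, another assembly factor, differed by -0.29 (adjusted p = 0.203).

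No tested member of complexes II or III passed, where 7.45% of all features did. In complex II, the membrane anchor Sdhd had 195 and 226 in Nanog+Sin3a against 244 and 359 in EV arrays (-0.50, SE 0.28, adjusted p = 0.326), and the iron-sulfur subunit Sdhb differed by -0.34 (SE 0.15, adjusted p = 0.222). In complex III, Uqcrq, a small ubiquinone-binding subunit, had 138 and 134 in Nanog+Sin3a against 121 and 94.7 in EV arrays (0.34, SE 0.16, adjusted p = 0.241). Uqcrc1, a core subunit, differed by 0.13 (SE 0.085, adjusted p = 0.406). All 3 tested members of complex II were lower in Nanog+Sin3a cells, and 6 of 7 in complex III were within 0.25 of EV.

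Most differences of the dimmer members were negative. Of the 22 members with a mean log2 up to 9, 15 were lower and 7 higher in Nanog+Sin3a than in EV cells, with a median of -0.14, where 47.6% of the other dimmer features were lower. Of the 58 bright members, 32 were lower and 26 higher (median -0.023), where 48.6% of the other bright features were lower. Slc25a4, Atp5md, Cox7b and Ndufb4, the called members with the largest falls, all belong to the dimmer ones.

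Levels of some markers of the cell state and of other cell types also differed between the groups. The summed intensity of the neural stem cell markers was 73.7 to 74.4 in Nanog+Sin3a, 81.5 to 85.8 in Nanog, 103 to 283 in Sin3a and 104 to 106 in EV arrays, and Nes fell in Nanog+Sin3a against EV cells (-0.78, adjusted p = 0.0355). The summed intensity of the fibroblast markers was 448 to 513 in Nanog+Sin3a, 509 to 561 in Nanog, 48.2 to 252 in Sin3a and 240 to 247 in EV arrays. Of its 7 markers, 1 was above the floor on all 7 arrays, and Col1a2, Col3a1 and Lum were at the floor on all 7. That 1 was Thy1, which made up most of the sum. It rose in Nanog+Sin3a (0.75, limma adjusted p = 0.0195) and in Nanog (1.13, adjusted p = 0.0101) against EV cells. Dcn rose in Nanog+Sin3a against EV cells (2.42, adjusted p = 0.0151), with EV arrays under the floor. Summed pluripotency markers were 2501 to 2607 in Nanog+Sin3a, 2833 to 3000.0 in Nanog, 2170.0 to 2460.0 in Sin3a and 2303 to 2388 in EV arrays. Without Nanog itself they were 2212 to 2322 in Nanog+Sin3a, 2468 to 2514 in Nanog, 2170.0 to 2460.0 in Sin3a and 2303 to 2388 in EV arrays. Sall4, a factor of pluripotent cells, fell in Nanog+Sin3a against EV cells (-1.37, adjusted p = 0.0085). Besides Sall4 and Nanog, no tested pluripotency marker passed in this comparison. Sox2, Klf4, Tfcp2l1, Dppa5a and Fbxo15 were higher (0.061 to 1.08), and Pou5f1 and Zfp42 were lower (-0.17 and -0.43). The differences of Tfcp2l1 (1.08) and Sox2 (0.061) each came from 1 Nanog+Sin3a array above the floor, at 71.9 and 17.4. That of Zfp42 came from 1 EV array, at 28.9. On the other Nanog+Sin3a and EV arrays Tfcp2l1, Sox2 and Zfp42 were at or under the floor. Muscle markers, of interest beside Slc25a4, summed to 0 to 3.3 in Nanog+Sin3a, 15.4 to 27.4 in Nanog, 3.1 to 188 in Sin3a and 15.4 to 32.1 in EV arrays, with 6 of 7 at the floor and Nanog and EV arrays that overlap. The part of these levels in the results on the members was not tested.

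The 8 calls rest on few arrays. Leaving out either Nanog+Sin3a array or either EV array, so that a group keeps 1, left 0 members called, while at most 0.0402% of all features were called. Without the first Nanog array 3 of 80 remained called (Atp5md, Ndufa9 and Ndufaf2), against 3.18% of all features.

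Nanog cells differed from EV cells in fewer called members. On 7 arrays 2 of 80 passed, against 2.69% of all features: Ndufa9 rose by 0.55 (SE 0.086, limma adjusted p = 0.0314) and Cox7b fell by 0.99 (SE 0.17, adjusted p = 0.0401). By direction, 1.44% of all features rose and 1.25% fell. The median difference was 0.0086, against 0 for all features, with 41 members higher and 39 lower. Slc25a4 (-2.07, adjusted p = 0.105), Atp5md (-1.16, 0.0602), Ndufb4 (-0.76, 0.102) and Ndufaf2 (-0.51, 0.0596) did not pass here. The Nanog+Sin3a and Nanog comparisons share the EV arrays. Leaving out either array of the Nanog+Sin3a, Nanog or EV group ended both calls.

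Over the bright features of all 8 arrays, 8 of 58 members passed in Nanog against EV cells, against 9.65% of bright features, with 4 up (4.57%) and 4 down (5.09%). Ndufa9 (0.55, limma adjusted p = 0.00192), Ndufa8 (0.51, 0.0101), Ndufa12 (0.44, 0.0288) and Cox6b1 (0.30, 0.0459) rose. Ndufaf2 (-0.51, 0.0251), Atp5a1 (-0.48, 0.0347), Atp5pb (-0.39, 0.0445) and Ndufb8 (-0.29, 0.0448) fell. Ndufa12 and Ndufa8 are accessory subunits of complex I, Ndufb8 one of its membrane arm, and Cox6b1 a subunit of complex IV on the intermembrane side. The same fit called 8 of 58 in Nanog+Sin3a against EV cells, against 17.0% of bright features, with 3 up (8.09%) and 5 down (8.96%). Ndufa9, Ndufa8 (0.56, adjusted p = 0.00289) and Atp5g2 (0.44, 0.0326) rose. Atp5a1, Ndufaf2, Atp5pb, Atp5h (-0.45, 0.0208) and Ndufa7 (-0.35, 0.0321) fell. Atp5h is a subunit of the peripheral stalk and Ndufa7 an accessory subunit of complex I. Ndufa12, Ndufb8, Atp5h and Ndufa7 are named after their values were seen.

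No member passed when Sin3a was added to Nanog. Between Nanog+Sin3a and Nanog cells 0 of 80 members passed limma's test on 7 arrays, against 0.0155% of all features. An unadjusted p under 0.05 was found for 5 members, against 1413 of all 12886 features. Over bright features of 8 arrays 0 of 58 passed, against 0.261% of bright features. There 7 members had an unadjusted p under 0.05, against 238 of 2300 bright features. The differences on 7 arrays ran from -0.55 to 0.40, and 66 of 80 were within 0.25. Ndufa7, which was singled out after its values were seen, had 1441 and 1541 in Nanog+Sin3a, against 1918 and 2245 in Nanog arrays (-0.48, SE 0.10, adjusted p = 0.238 on 7 arrays and 0.0684 over bright features).

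With Sin3a alone 0 of 58 bright members passed limma's test against EV cells, against 0.174% of bright features called. An unadjusted p under 0.05 was found for 3 members, against 180 of 2300 bright features. The differences ran from -0.31 for Atp5a1 (adjusted p = 0.599) to 0.30 for Ndufv1 (adjusted p = 0.488), and 54 of 58 were within 0.25. The members' median was -0.034, against 0.0022 for all bright features, with 19 higher and 39 lower. This balance changed with the EV array used. Without the first EV array 14 were higher and 44 lower (median -0.084). Without the second, 31 were higher and 27 lower (median 0.0047). With 2 arrays per group this comparison cannot show small differences, and the dimmer members were not tested in it.

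Nanog+Sin3a cells differed from Sin3a cells in 4 of 58 bright members, against 11.6% of bright features, with 2 up (5.61% of bright features) and 2 down (5.96%). Ndufa9 rose by 0.61 (SE 0.098, limma adjusted p = 0.000341) and kept its call when any of the 8 arrays was left out (adjusted p 4.81e-06 to 0.0138). It lost the call with array weights, which weighted both Sin3a arrays at 0.0855 (adjusted p = 0.863, range over its alternatives 0.000257 to 0.863).

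Ndufa8, an accessory subunit of complex I on the intermembrane side, had 3175.0 and 2686 in Nanog+Sin3a, 2539.5 and 3151 in Nanog, 2038 and 1954 in Sin3a, and 1948 and 2022 in EV arrays. All arrays with Nanog were above all without it. The difference between Nanog+Sin3a and Sin3a was 0.55 (SE 0.12, adjusted p = 0.00416). A second probe of Ndufa8 showed the same order, with 1454 and 1336 in Nanog+Sin3a, 1309.8 and 1475 in Nanog, 934 and 937 in Sin3a, and 938 and 1101 in EV arrays.

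Ndufv1, the core subunit of complex I that binds NADH, had 3292 and 2928 in Nanog+Sin3a, 2749 and 2944 in Nanog, 3883 and 4086 in Sin3a, and 3542 and 2949 in EV arrays. The Sin3a arrays were the highest and the Nanog+Sin3a arrays overlapped the EV arrays. Its difference between Nanog+Sin3a and Sin3a was -0.36 (SE 0.11, adjusted p = 0.0311), and it was -0.058 between Nanog+Sin3a and EV. Atp5a1 fell by 0.49 in the same comparison (SE 0.14, adjusted p = 0.0234). Ndufa9 was the 1 member called without the first Nanog+Sin3a array, without the second Sin3a array over bright features, and on those 7 arrays over all features. Of the features tested, 4.48%, 3.52% and 1.94% were called in these settings. Without the second Nanog+Sin3a array Ndufa9 and Ndufa8 were called, beside 5.91% of bright features, and without the first or the second Nanog array 10 and 9 of 58 members were, against 19.4% and 19.3% of bright features.

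**Figure D4:**
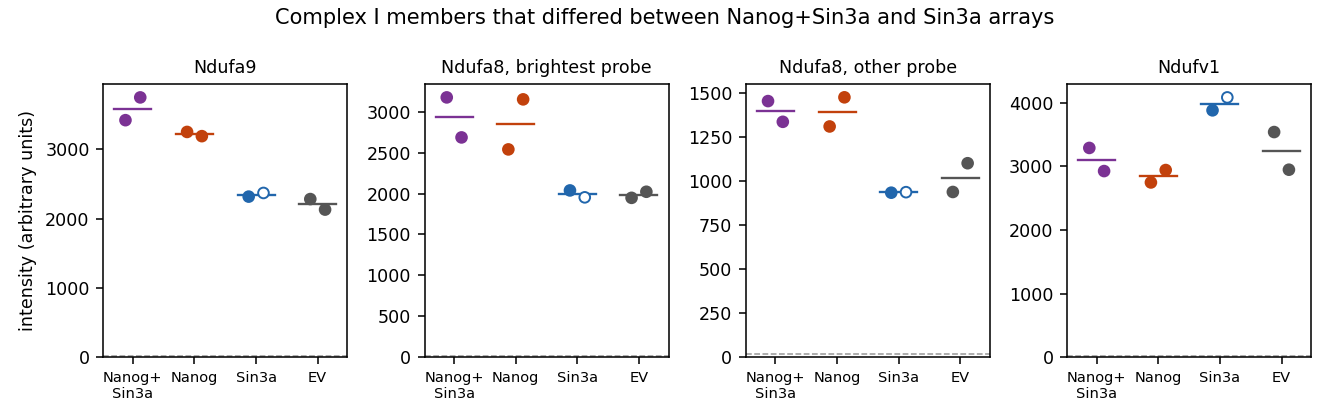
Intensity in arbitrary units (vertical axis, from 0) on each array, by group, for Ndufa9, both probes of Ndufa8, and Ndufv1; bars are group means, the open point is the second Sin3a array and the dashed line near 0 the floor. Ndufa9 and both Ndufa8 probes are higher on the 4 arrays with Nanog, and Ndufv1 is highest on the Sin3a arrays.

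The interaction is the difference between what Sin3a added in Nanog cells and what it added in EV cells. It passed limma's test for 0 of 58 bright members, against 0.0435% of bright features. An unadjusted p under 0.05 was found for 2 members, against 150 of 2300 bright features. It was 0.065 for Ndufa9 (SE 0.14, adjusted p = 0.938), 0.038 for Ndufa8 (SE 0.16, adjusted p = 0.979), -0.011 for Atp5a1 (SE 0.19, adjusted p = 0.995) and -0.18 for Ndufv1 (SE 0.15, adjusted p = 0.833).

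Sorting the arrays by the Nanog transgene alone, without a test, 10 of 80 members lay higher on all 4 arrays with Nanog than on all 3 without, against 11.9% of all features, and 13 lay lower, against 12.5%. Over bright features of 8 arrays 8 of 58 were higher, against 13.2%, and 6 were lower, against 12.0%. The 8 higher bright members were Ndufa9, Ndufa8, Ndufa11, Ndufab1, Ndufs4, Cox6b1, Atp5g2 and Atp5j2, and the 6 lower were Ndufb8, Ndufs8, Ndufaf2, Atp5h, Atp5pb and Atp5mpl. Complex I subunits stood on both sides. On its brightest probe Ndufs4 was higher by 0.075, while its other probes were lower than in EV arrays. They differed by -0.51 to -0.28 in Nanog and by -0.79 to -0.18 in Nanog+Sin3a cells. The other probes of Ndufab1 ran from -0.27 to 0.036 in Nanog and from -0.37 to -0.021 in Nanog+Sin3a cells. The second probes of Ndufa8 (0.45 and 0.46) and Cox6b1 (0.21 and 0.22) were also higher than in EV arrays.

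Of the tissue-specific forms, Cox4i2, Cox6a2, Cox6b2, Cox7b2, Cox8b and Cox8c did not exceed 8.0 on the 7 arrays and were not tested. Cox8b read 104 on the second Sin3a array, where other dim probes were also scattered. Cox7a1, the heart and muscle form, lay between -10.6 and 35.2 on the 8 arrays. Of the general forms, Cox4i1 ran from 4262 to 5485 (Nanog+Sin3a minus EV 0.057, adjusted p = 0.83), Cox6a1 from 2660 to 3266 (0.13, adjusted p = 0.48) and Cox6b1 from 3531 to 4672 (0.20, adjusted p = 0.224). Cox7a2 differed by -0.12 (adjusted p = 0.789) and Cox7a2l, which joins complexes III and IV into supercomplexes, by -0.074 (adjusted p = 0.682). Ndufa4, a protein now counted with complex IV, differed by -0.0001 (SE 0.10). Cox8a and Ndufa4l2 were not analysed here. The core subunits Ndufs1, Sdha and Uqcrfs1, which respiring cells need, were likewise at most 17.4 on the 7 arrays, so a reading at the floor is not taken as absence.

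Of the 48 other probes 39 were tested, for 29 members. In Nanog+Sin3a against EV cells 20 had the same sign as the brightest probe and 19 the opposite. The 3 that passed, where 5.87% of all probes tested as features of their own did, were all dim and lower in Nanog+Sin3a cells, beside brightest probes that did not pass. The floor of 16 sets the size of their differences in part, since 1 or both Nanog+Sin3a arrays were under it. A probe of Ndufc2, a complex I membrane subunit, read 19.9 and -1.8 in Nanog+Sin3a against 64.2 and 84.9 in EV arrays (-2.05, adjusted p = 0.0213), while the brightest read 1663 and 2145 against 1842 and 1873 (0.024). A probe of Atp5j, a stalk subunit, read 17.9 and 7.1 in Nanog+Sin3a against 40.7 and 60.4 in EV arrays (-1.55, adjusted p = 0.022), while its brightest differed by -0.014. A probe of Atp5k, the e subunit, read -2.8 and 1.0 in Nanog+Sin3a against 31.4 and 41.0 in EV arrays. All 4 arrays with Nanog were under the floor, so it was tested only because it was above it elsewhere, and its call is no support. Its brightest probe differed by 0.068. A dim probe of Atp5o (-0.85, adjusted p = 0.2) also differed from its brightest probe (-0.042). The other probes of Ndufs4 were all lower in Nanog+Sin3a cells, beside 0.044 for the brightest. Their differences were -0.79, -0.64 and -0.18 (adjusted p = 0.051, 0.0987 and 0.407). The probe with -0.64 was not dim, with 449 and 458 in Nanog+Sin3a against 662 and 755 in EV arrays. Many of these genes have processed pseudogenes, and whether a probe reads such copies was not tested.

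Other mitochondrial genes were read as 4 lists. Of all features 7.45% passed in Nanog+Sin3a against EV cells. Comparing Nanog+Sin3a with EV cells, 0 of 23 tested genes of cytochrome c and the assembly of complexes III to V passed, 0 of 16 of the citrate cycle and pyruvate dehydrogenase, and 0 of 15 of mitochondrial biogenesis, with medians of 0.097, -0.049 and -0.14. Among 21 channel, carrier and import genes 2 fell, where 3.67% of all features did. Vdac2, an outer membrane channel, had 960 and 941 in Nanog+Sin3a against 1401 and 1323 in EV arrays (-0.52, SE 0.091, limma adjusted p = 0.0266). Timm13, an import chaperone, had 19.6 and 26.5 in Nanog+Sin3a against 50.2 and 44.0 in EV arrays (-1.04, SE 0.22, adjusted p = 0.0406). Against Sin3a cells, over bright features, Vdac2 fell in Nanog+Sin3a cells (-0.38, adjusted p = 0.033) and Phb2, a prohibitin of the inner membrane, rose (0.38, adjusted p = 0.0238). Of all bright features 5.96% fell and 5.61% rose there. In Nanog against EV, Nanog+Sin3a against Nanog, and Sin3a against EV cells no gene of the 4 lists passed limma's test. The shares called in these were 2.69% and 0.0155% of all features and 0.174% of bright features.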

How the data were processed

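RNA was measured on Illumina bead arrays, 8 in all. Per the submitters' processing notes the intensity of each probe came from GenomeStudio (version and settings are not given in the sources used here). The deposited intensity values ran from -24 to 14965 on a linear scale for 45281 probes, and 35.7% to 36.1% of probes per array were above 16. The background had been subtracted. At ranks with a median value above 16, 7 arrays had the same distribution to within 0.621%, so the values were taken as quantile-normalised by the authors. For arrays, their number limits the precision.

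Of the probes, 34885 had 1 symbol in the annotation, 18 had several and 10378 had none. Lookup of gene identifiers changed 0 symbols. Values were raised to 16 where lower and turned into log2, and each symbol was read from its brightest probe by the mean over 8 arrays. Features above 16 on at least 2 arrays were tested with limma 3.58.1 in R 4.3.3 (lmFit, eBayes with an intensity trend, 1 coefficient per group, two-sided, Benjamini-Hochberg at 0.05 over all features). Nanog, Nanog+Sin3a and EV were compared on 7 arrays (12886 features, 3 residual degrees of freedom). Comparisons with Sin3a used 2300 bright features of 8 arrays, with a mean log2 above 9 (4 residual degrees of freedom). Named members were those that passed (up to 10 in each direction), the 2 largest Nanog+Sin3a minus EV differences of each complex, and fixed isoform sets. Members whose probes differed from EV in opposite directions, by over 0.5 on either probe, were also named. The procedure was checked on simulated data. Members, gene lists, fits and rules were chosen with earlier results of these data known. Alternatives were other floors, no filter, the replicate number as a block, other scalings, every probe as a feature, no trend, other sets of arrays and array weights. Tools also used were Python 3.11.15, pandas 2.3.3, numpy 2.4.6 and matplotlib 3.10.9.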

Additional observations from a re-analysis of the deposited data

How the results depend on the processing

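No member called in the main fits changed direction under any alternative. Most alternatives leave the difference of group means as it is, so the direction could not change in them. Percentages here are the shares of all features called in the same setting. Members called in Nanog against EV cells, 2 on 7 arrays (2.69%), numbered 1 with a floor of 8 (1.5%) and 6 with a floor of 32 (5.97%). They numbered 0 with no filter (0.16%), 4 after median centring (3.16%) and 1 without the intensity trend (2.53%). On all 8 arrays they numbered 0 with all features (0%), 9 with array weights (6.09%) and 8 over bright features (9.65%). For Nanog+Sin3a against EV cells the 8 (7.45%) became 0 with no filter (0.424%) and 1 on all 8 arrays with all features (0.256%). For Nanog+Sin3a against Sin3a cells the 4 became 1 on all 8 arrays with all features, 0 with array weights, 1 on 7 arrays, and 1 to 10 with an array left out. The shares called there were 11.6% in the main fit, 0.139% on all 8 arrays with all features and 0% with array weights. Those on 7 arrays and without a Nanog+Sin3a, a Nanog or the second Sin3a array are given above. Counts of 0 in the other comparisons stayed 0 in every setting run. The low number of arrays after leaving 1 out and the larger number of features without a filter come with these settings; other causes were not tested. Over all features, calls in Nanog against EV cells numbered 347 on 7 arrays, 0 on all 8 arrays, 47 with no filter, 573 with a floor of 32 and 834 with array weights. For Nanog+Sin3a against EV cells the counts in the same order were 960, 35, 125, 1287 and 1440.

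Same-numbered arrays did not deviate together on 7 arrays (correlations of deviations from the group means -0.0605 to -0.0243). Over bright features of 8 arrays these correlations ran from -0.1727 to 0.0581. With the replicate block 0 members (1.54% of all features) were called in Nanog against EV cells, 6 (4.11%) in Nanog+Sin3a against EV cells and 4 (beside 252 of 2300 bright features) in Nanog+Sin3a against Sin3a cells. Intensities near the floor limit what the dimmer members can show.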
